A study of Homo sapiens with 6 samples.

Results

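The kinesin family was examined in K562 cells after knockdown of METTL3 or METTL14. Its members were the protein-coding rows of the count table whose Ensembl identifier maps to a symbol beginning with KIF and a digit, or to KIFC1, KIFC2, KIFC3 or KIFBP. This gave 43 genes of 61661 rows, and 35 of them passed the filter on low counts, among 17686 genes that did. A further 13 rows with KIF symbols that are not protein-coding, such as the pseudogene KIF28P, were left out. The family was chosen because the rise of KIF1A in shMETTL3 cells was already known, so the values of KIF1A in shMETTL3 cells are given as a description, with no test. Each of the 35 tested members had at least 15 reads in every library, so none passed the filter through 1 group alone.

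K562 is an established line of chronic myeloid leukemia cells in blast phase, grown from a pleural effusion, with an erythroid character. RNA was sequenced from 6 libraries, 2 each of cells carrying a control shRNA (shCTR), an shRNA to METTL3 (shMETTL3) and an shRNA to METTL14 (shMETTL14), all harvested in logarithmic growth. The shCTR and shMETTL3 lines were made with a lentivirus that expresses the hairpin from a U6 promoter together with GFP and puromycin resistance, the control virus holding a nonsense sequence, and infected cells were selected with puromycin. The vector of the shMETTL14 line is not described in the sources used here, and neither is whether any line was a single clone. Nothing states that the 2 libraries of a group came from separate cultures, so the p-values measure the spread between these libraries, which may be technical. METTL3 and METTL14 together form the methyltransferase that writes N6-methyladenosine on mRNA.

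Kinesins are motor proteins that use ATP to move along microtubules or to take microtubule ends apart. Mitotic kinesins build the spindle, carry and align chromosomes and complete cytokinesis, and dividing cells express them around G2 and M phase. Transport kinesins carry vesicles, mitochondria and protein complexes, over long distances in axons, and several are best known from neurons. Others work in cilia or have lost motility and act in signalling. The 43 members were sorted by these roles into 15 mitotic, 18 transport, and 10 ciliary or other genes. The adaptor KIFBP, which is no motor and binds a subset of kinesin motor domains, was placed with the transport genes.

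Library totals ran from 19292574 to 20115304 reads. METTL3 had 1788 and 1728 reads in shCTR libraries and 1031 and 938 in shMETTL3 libraries, 54.9% of the control level (adjusted p = 3.44e-07, edgeR's quasi-likelihood test). METTL14 had 656 and 655 reads in shCTR libraries and 375 and 404 in shMETTL14 libraries, 58.9% of the control level (adjusted p = 1.4e-05). Each knockdown thus lowered its own target in both of its libraries. All 11 erythroid markers were above 3 reads in every library, and their summed level was 1770 CPM in shCTR, 1990 in shMETTL3 and 1800 to 1820 in shMETTL14 libraries. Past the threshold, 5 of these rose and 1 fell after METTL3 knockdown, where 8.73% of all genes rose and 7.73% fell. After METTL14 knockdown 4 rose and 0 fell, where 3.43% of all genes rose and 3.26% fell. ALAS2 led both, with 274 and 309 reads in shCTR, 1040 and 996 in shMETTL3 and 652 and 687 in shMETTL14 libraries. The part of the erythroid markers in the kinesin values was not tested. Of 8 lymphoid and monocyte markers 4 stayed at or under 3 reads throughout, and LYZ led the rest, with a summed level of the list from 46.1 to 47.7 CPM in shCTR, 20.4 to 21.9 in shMETTL3 and 63.1 to 69.6 in shMETTL14 libraries. Of 8 stromal and epithelial markers 3 stayed at or under 3 reads, KRT5 and CDH5 were at 0, and KRT19 led a sum of 125 to 130 CPM in shCTR, 107 to 112 in shMETTL3 and 138 to 144 in shMETTL14 libraries. In that list COL1A1 was called higher and EPCAM lower in shMETTL3 cells, and KRT19 higher and EPCAM lower in shMETTL14 cells. In bulk RNA, fewer cells of a type and less RNA per cell cannot be told apart.

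Many promoters of the mitotic group, but not all, held 2 short motifs. Of the windows printed, 5 were picked because they hold both and 3 because they hold neither. The letters searched on both strands were TTTGAA, the cell cycle genes homology region (CHR) known from promoters active in G2 and M phase, and CCAAT, the box known to bind NF-Y. RefSeq entries (GRCh38.p14) were found for 35 of the 43 members. KIF5A, KIF13B, KIF19, KIF21B, KIF26B, KIF27, KIFC2 and KIFC3 had none. Each window below runs from 100 bases before to 10 bases after a start, 5′ to 3′ on the gene's strand, with CHR and CCAAT letters of either orientation in capitals. No match overlaps another. The first 5 belong to mitotic kinesins. KIF11 is the motor that pushes spindle poles apart (chr10:92593030-92593139, plus strand), and KIF14 acts in cytokinesis (chr1:200620742-200620851, minus). KIF18B works at microtubule plus ends (chr17:44947764-44947873, minus), KIF23 bundles the midzone (chr15:69414249-69414358, plus) and KIF4A is a chromokinesin (chrX:70290004-70290113, plus). The last 3 belong to genes described below whose windows held neither motif, KIF1A at 1 of its starts (chr2:240821030-240821139, minus), KIF17 (chr1:20717998-20718107, minus) and KIF7 (chr15:89655458-89655567, minus).
KIF11: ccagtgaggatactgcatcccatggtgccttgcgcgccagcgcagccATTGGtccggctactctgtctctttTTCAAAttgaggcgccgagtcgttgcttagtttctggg
KIF14: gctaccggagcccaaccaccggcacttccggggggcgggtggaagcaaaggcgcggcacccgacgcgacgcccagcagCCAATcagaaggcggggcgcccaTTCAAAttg
KIF18B: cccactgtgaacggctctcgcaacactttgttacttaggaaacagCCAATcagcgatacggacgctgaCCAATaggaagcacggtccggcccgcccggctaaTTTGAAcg
KIF23: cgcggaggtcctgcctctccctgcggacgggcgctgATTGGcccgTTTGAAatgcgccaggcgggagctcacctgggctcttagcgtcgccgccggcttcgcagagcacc
KIF4A: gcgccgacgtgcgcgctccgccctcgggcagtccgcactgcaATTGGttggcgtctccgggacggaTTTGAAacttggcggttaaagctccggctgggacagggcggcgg
KIF1A: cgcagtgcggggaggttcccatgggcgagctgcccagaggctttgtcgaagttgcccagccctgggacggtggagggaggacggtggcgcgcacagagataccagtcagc
KIF17: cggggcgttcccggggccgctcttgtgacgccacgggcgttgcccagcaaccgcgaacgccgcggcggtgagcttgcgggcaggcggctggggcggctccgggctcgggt
KIF7: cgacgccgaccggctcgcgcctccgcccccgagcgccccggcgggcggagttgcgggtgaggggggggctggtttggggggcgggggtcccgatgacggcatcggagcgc

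Counted over windows of 250 bases before to 50 after the start, CHR letters stood in 10 of 15 mitotic kinesin genes, in 1 of 13 transport genes with an entry (KIF5B) and in 0 of 7 ciliary or other genes. Of all 35116 promoters, 15.2% held them. CCAAT stood in 11 mitotic, 5 transport and 3 ciliary or other genes, against 34.6% of all promoters, and 9 of the 15 mitotic genes held both motifs, against 5.9% of all promoters. In each of the 10 mitotic genes the CHR letters lay in the last 60 bases before the start or after it, where 5.03% of all promoters held them. The kinesin-13 genes KIF2A, KIF2B and KIF2C had neither motif, while KIF24, of the same subfamily, held CCAAT. The windows of KIF4A and KIF4B count as 2 entries although KIF4B is a copy of KIF4A. A member counted if any of its starts held the letters, whereas the shares of all promoters count each start by itself, so the units differ. A match is a description of letters and no measure of binding.

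**Figure D1:**
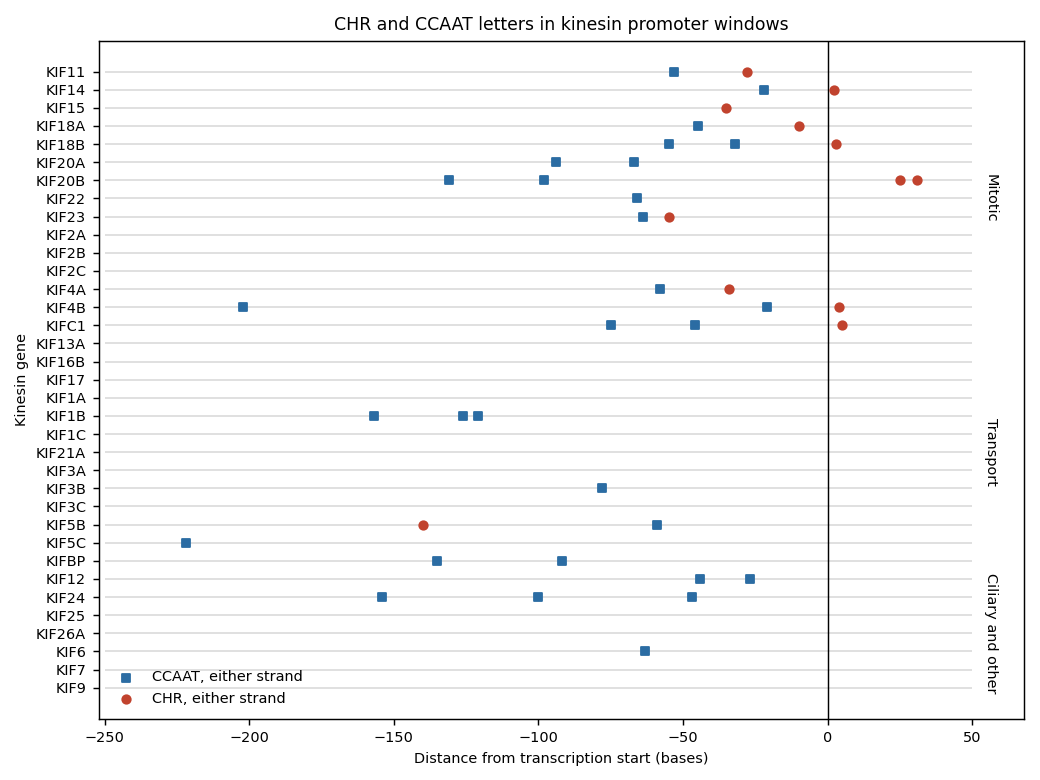
Positions of CHR letters (circles) and CCAAT letters (squares) relative to the transcription start, in bases, for the 35 kinesin genes with a RefSeq promoter entry, grouped by role. The 10 mitotic genes with CHR letters have them close to the start, while KIF5B alone holds them in the other groups, farther upstream.

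Mitotic kinesins had the highest median level of the role groups per kb of transcript. In CPM per kb of the longest transcript, averaged over the 6 libraries, the 13 tested mitotic genes ran from 8.32 to 77.8 with a median of 15.1. The 17 tested transport genes ran from 0.372 to 41.9 with a median of 8.28, and the 5 tested ciliary or other genes from 0.196 to 3.69 with a median of 2.19. The highest in each group were KIF2C, a depolymerase at centromeres, KIFC3, a minus-end-directed motor, and KIF9, known from motile cilia. Summed over all members without scaling by length, transport genes exceeded mitotic genes in shMETTL3 replicate 2 (1162 against 1129 CPM). They also did in shMETTL14 replicate 2 (1134 against 1114 CPM), and were lower than mitotic genes in the other libraries. All these values compare levels, not differences.

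Of the 8 members that were not tested, 6 stayed at 3 reads or fewer in every library, namely KIF2B, KIF5C, KIF6, KIF12, KIF25 and KIF26A. KIF19 reached 5 reads. KIF4B had 7, 7, 5, 1, 3 and 3 reads in the order shCTR, shMETTL3, shMETTL14, which cannot be told apart from reads of its near-identical parent gene KIF4A. Summed over all 43 members, kinesin mRNA was 2341 and 2196 CPM in shCTR, 2406 and 2344 in shMETTL3 and 2364 and 2297 in shMETTL14 libraries. The shMETTL14 totals overlapped those of both other groups, and the shMETTL3 totals began just above the higher shCTR total. These totals include KIF1A, the gene behind the choice of the family. It had 0.911 and 1.51 CPM in shCTR and 7.02 and 9.32 CPM in shMETTL3 libraries. Nothing is therefore read from the gap between 2344 and 2341 CPM.

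**Figure D2:**
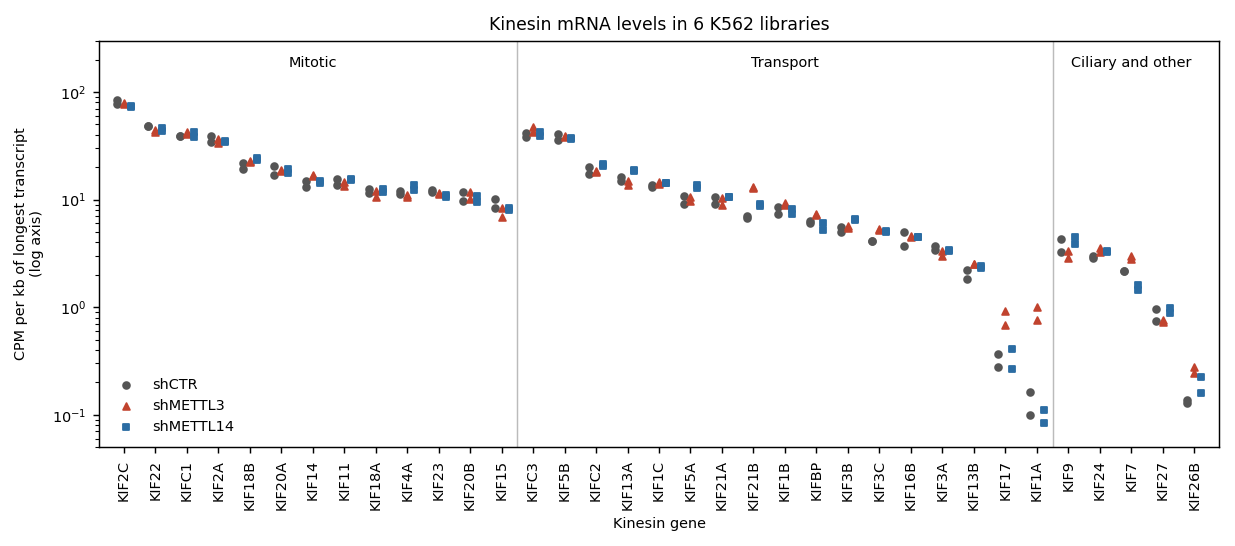
Level of each of the 35 tested kinesin genes in the 6 libraries, in CPM per kb of the longest transcript on a log axis, ordered by level within each role. Mitotic genes lie between 8.32 and 77.8 on average, and the 2 genes whose shMETTL3 points stand farthest above the others, KIF1A and KIF17, are among the 3 lowest of the tested genes.

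KIF1A (ENSG00000130294), the axonal motor for synaptic vesicle precursors, had 18 and 29 reads in shCTR libraries, 138 and 187 in shMETTL3 libraries and 20 and 15 in shMETTL14 libraries. Both shMETTL3 libraries stood above the other 4. The gene lies on chromosome 2 from 240713761 to 240821036, minus strand, and its longest transcript has 49 exons. Its mean level was 1.21 ± 0.427 CPM (SD, n = 2) in shCTR, 8.17 ± 1.62 after METTL3 knockdown and 0.891 ± 0.179 after METTL14 knockdown. The fitted log2 difference was 2.75 (SE 0.251) from shCTR, a 6.73-fold higher level, and 3.19 (SE 0.264) from shMETTL14, a 9.11-fold higher level. Leaving out single libraries kept the difference from shCTR between 2.43 and 3.16. Between shMETTL14 and shCTR the log2 difference was -0.44 (SE 0.354, adjusted p = 0.524), and the libraries overlapped. The choice of the family did not use the shMETTL14 libraries. It did rest on a rise from the same shCTR libraries, so this test is not independent of the choice.

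Even in shMETTL3 cells KIF1A remained a minor member of its subfamily. Per kb its level was 0.132, 0.887 and 0.0967 CPM in the order shCTR, shMETTL3, shMETTL14. KIF1B, which carries mitochondria and synaptic vesicle precursors, was at 7.996, 9.12 and 7.73 CPM per kb in the same order. Of the summed CPM of KIF1A, KIF1B and KIF1C, KIF1A held 0.462% and 0.803% in shCTR, 3.23% and 4.24% in shMETTL3, and 0.53% and 0.383% in shMETTL14 libraries.

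K562 cells are not neurons, and the neuronal markers were mostly absent. Of 16 markers, 4 were tested, 10 stayed at 3 reads or fewer in every library, and MAP2, DCX, ELAVL4, INA, STMN2 and SNAP25 were at 0 in all 6. Only NEFH and SYP were above 3 reads in every library. The summed level of the list was 22.6 to 22.7 CPM in shCTR, 29.6 to 31 in shMETTL3 and 16 to 19.9 in shMETTL14 libraries. NEFH had 182 and 184 reads in shCTR, 210 and 175 in shMETTL3 and 200 and 146 in shMETTL14 libraries. It was not called in any comparison by edgeR. SYP, a synaptic vesicle protein, led the list, with 250 and 236 reads in shCTR, 365 and 382 in shMETTL3 and 160 and 147 in shMETTL14 libraries. By edgeR, SYP was called higher in shMETTL3 and lower in shMETTL14 than in shCTR cells. SYT1, with 3 and 3 reads in shCTR, 11 and 15 in shMETTL3 and 12 and 8 in shMETTL14 libraries, passed the filter only through the knockdown groups, so its call is given no weight. DESeq2 called 1 of the 4 markers higher in shMETTL3 cells, beside 873 of 17686 genes, and 1 lower in shMETTL14 cells, beside 404. The part of these genes in the KIF1A values was not tested.

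Compared with shCTR, shMETTL3 cells had higher levels of 6 kinesin genes and a lower level of 0 of the 34 tested besides KIF1A. Among all genes tested, 8.73% were called higher and 7.73% lower. Because the family was chosen with a value of this comparison, nothing is read from that contrast of shares. At an unadjusted p under 0.05, 11 members were higher and 2 lower. The share of all genes at that cut was not computed for any comparison, so nothing is read from such counts. DESeq2 called 4 members higher and 0 lower, without KIF26B and KIF7. Of 17686 genes it called 873 higher and 1008 lower. By role, 3 of 16 transport genes, 2 of 5 ciliary or other genes and 1 of 13 mitotic genes rose. The median log2 fold change was 0.08 over the transport genes, 0.21 over the ciliary or other genes and -0.06 over the mitotic genes, beside 0.0030 over all genes tested.

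Among the transport genes, KIF21B rose with the smallest adjusted p of the family. This kinesin-4 motor pauses and limits microtubule growth in neurons and lymphocytes (ENSG00000116852, chromosome 1, 200969390 to 201023700, minus strand). Its reads were 1378 and 1292 in shCTR, 2566 and 2553 in shMETTL3 and 1765 and 1700 in shMETTL14 libraries, 3 separate levels with no overlap. The log2 fold change in shMETTL3 cells was 0.91 (SE 0.0645, adjusted p = 1.53e-08), and all 13 alternative analyses kept it past the threshold, from 0.70 to 0.97.

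KIF17, the kinesin-2 motor that carries NMDA receptor subunits into dendrites, had 29 and 21 reads in shCTR, 72 and 54 in shMETTL3 and 21 and 32 in shMETTL14 libraries. It lies on chromosome 1 from 20664014 to 20718017, minus strand. Both shMETTL3 libraries were above the other 4, with a log2 fold change of 1.30 (SE 0.287, adjusted p = 0.00389). KIF3C, a kinesin-2 subunit that pairs with KIF3A, had 449 and 430 reads in shCTR, 559 and 586 in shMETTL3 and 550 and 534 in shMETTL14 libraries. The knockdown libraries lay above the controls in both groups, and the gene spans 25926596 to 25982749 on chromosome 2, minus strand. KIF3C rose by 0.35 on the log2 scale in shMETTL3 cells (SE 0.0867, adjusted p = 0.0085), while in shMETTL14 cells the value of 0.29 (SE 0.0871) missed the threshold with adjusted p = 0.0511. Its level did not differ detectably between the knockdowns (log2 difference 0.06, SE 0.0849, adjusted p = 0.707).

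Among the ciliary and other genes, KIF26B and KIF7 rose in shMETTL3 cells. KIF26B, a kinesin-like protein without motor activity (chromosome 1, 245154985 to 245709431, plus strand), had 31 and 32 reads in shCTR, 66 and 60 in shMETTL3 and 53 and 38 in shMETTL14 libraries. Its log2 fold change was 0.97 (SE 0.254, adjusted p = 0.0126). KIF7, the regulator of Hedgehog signalling at the tip of the primary cilium (chromosome 15, 89608789 to 89655451, minus strand), had 195 and 188 reads in shCTR, 266 and 258 in shMETTL3 and 128 and 143 in shMETTL14 libraries. The 3 groups did not overlap, with shMETTL3 above and shMETTL14 below the controls. The rise of KIF7 in shMETTL3 cells was 0.42 on the log2 scale (SE 0.125, adjusted p = 0.0244) and passed the threshold in 6 of 13 alternatives. KIF9, the highest member of this group, had 286 and 208 reads in shCTR, 190 and 226 in shMETTL3 and 257 and 295 in shMETTL14 libraries, which overlapped between controls and either knockdown.

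KIF14 was the mitotic kinesin that rose in shMETTL3 cells. It had 2143 and 1833 reads in shCTR, 2420 and 2429 in shMETTL3 and 2120 and 2024 in shMETTL14 libraries (chromosome 1, 200551497 to 200620734, minus strand). The shMETTL3 libraries were above the controls by 0.26 on the log2 scale (SE 0.0689, adjusted p = 0.014). KIF2C, the highest mitotic kinesin, had 4903 and 4400 reads in shCTR, 4637 and 4617 in shMETTL3 and 4352 and 4205 in shMETTL14 libraries. Its log2 difference was -0.04 (SE 0.0606, adjusted p = 0.738) in shMETTL3 and -0.13 (SE 0.0607, adjusted p = 0.218) in shMETTL14 cells. KIFC3, the highest transport gene, had 2589 and 2747 reads in shCTR, 2867 and 3244 in shMETTL3 and 2879 and 2616 in shMETTL14 libraries, with a log2 difference of 0.16 in shMETTL3 cells (SE 0.0712, adjusted p = 0.123).

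Several calls were lost and others gained when 1 library was left out, while the fold changes of the genes called with all libraries kept their direction. Where a group is left with 1 library, that library is assumed to vary like the other groups, and the calls over all genes also dropped, from 2912 to 1560 without shMETTL3 replicate 1 and to 1144 without replicate 2. Without shMETTL3 replicate 1, KIF14, KIF17, KIF26B and KIF7 were no longer called, KIF15 was called lower, and 3 members were called in all. Leaving out shMETTL3 replicate 2 likewise left 3 calls, without KIF14, KIF3C and KIF7. Without shCTR replicate 1 the calls of KIF26B and KIF7 were lost, and KIF1B and KIF13B were gained as higher. Without shCTR replicate 2 the calls of KIF14 and KIF7 were lost. That fit gained KIF18B and KIFC3 as higher and KIF15, KIF13A and KIF9 as lower, and its calls over all genes also rose. The absence of lower calls thus depended on which libraries were used. Over these single-library omissions the log2 fold change ran from 0.17 to 0.35 for KIF14, from 0.33 to 0.37 for KIF3C, from 1.06 to 1.53 for KIF17, from 0.88 to 1.05 for KIF26B and from 0.39 to 0.46 for KIF7.

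The 6 members called higher had a median transcript GC content of 57.6%, against 47.4% for the 28 not called and 48.2% for all genes. With a GC and length trend removed from each library, 5 members were called higher and 3 lower, KIF7 being lost and KIF13A, KIFC2 and KIF22 gained as lower. Among all 17686 genes, that setting called 1634 higher and 1890 lower in place of 1544 and 1368, so nothing is read from these member counts.

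**Figure D3:**
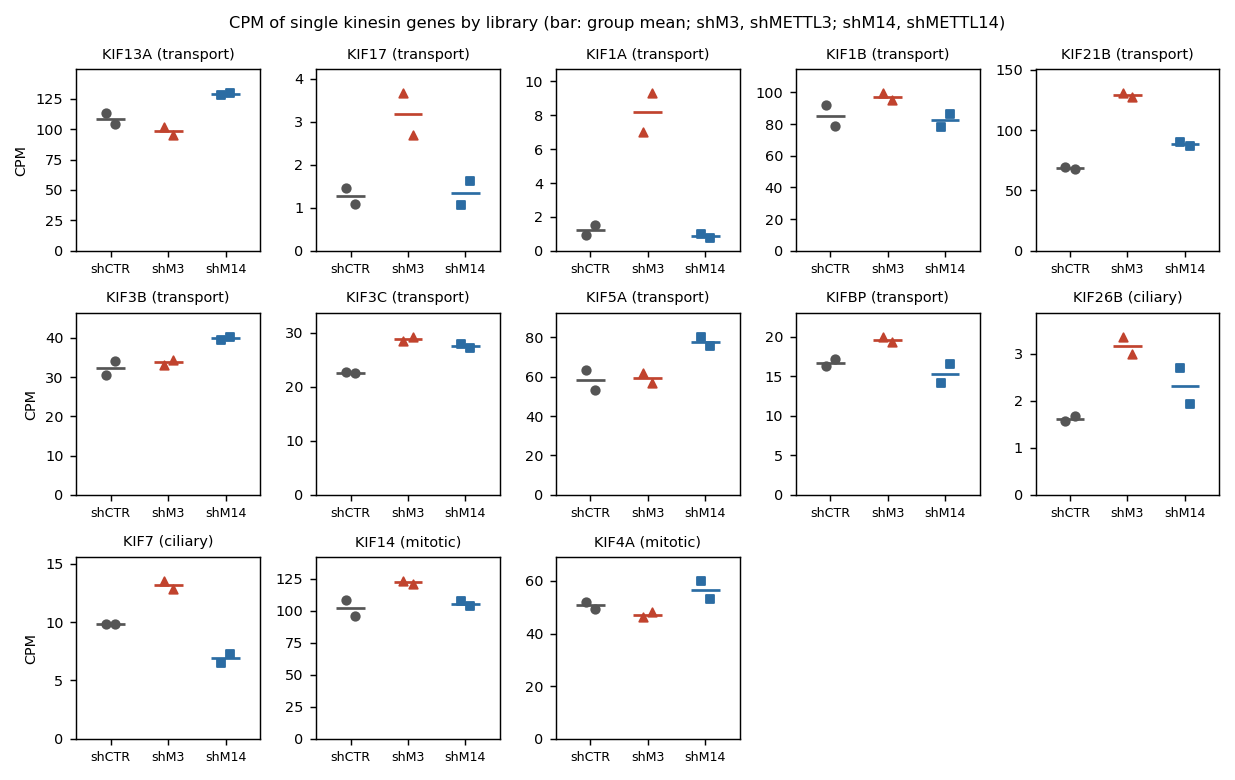
CPM of KIF1A and the 12 kinesin genes called in at least 1 comparison, by library, with a bar at each group mean and each axis starting at 0. KIF21B and KIF7 fall into 3 separate levels, KIF1A and KIF17 are high in both shMETTL3 libraries, and KIF5A, KIF13A and KIF3B are high in both shMETTL14 libraries.

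In shMETTL14 cells 4 kinesin genes rose and 1 fell relative to shCTR, of 35 tested. Over all genes tested, 3.43% were called higher and 3.26% lower. The unadjusted p was under 0.05 for 8 members higher and 3 lower. DESeq2 called 3 members higher and 0 lower, without KIF3B and KIF7, and 359 of 17686 genes higher and 404 lower. The 4 that rose were all among the 17 transport genes, KIF7 was the member that fell, and 0 of 13 mitotic genes passed in either direction, with 1 higher and 2 lower at an unadjusted p under 0.05 and 0 by DESeq2. Median log2 fold changes were 0.08 for transport, 0.15 for ciliary or other and -0.02 for mitotic genes, beside -0.00014 for all genes. The same 2 shCTR libraries served both knockdown comparisons.

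KIF5A, the neuronal heavy chain of conventional kinesin (chromosome 12, 57549998 to 57586632, plus strand), had 1257 and 1024 reads in shCTR, 1214 and 1143 in shMETTL3 and 1577 and 1480 in shMETTL14 libraries. Both shMETTL14 libraries were above the other 4, and the log2 fold change from shCTR was 0.41 (SE 0.0798, adjusted p = 0.00303). KIF21B rose in this knockdown also, by 0.36 on the log2 scale (SE 0.0654, adjusted p = 0.00153). KIF3B, the motor subunit of kinesin-II that drives transport inside cilia (chromosome 20, 32277664 to 32335011, plus strand), had 606 and 651 reads in shCTR, 651 and 690 in shMETTL3 and 776 and 789 in shMETTL14 libraries. Its rise in shMETTL14 cells was 0.30 on the log2 scale (SE 0.081, adjusted p = 0.0281).

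KIF13A, a kinesin-3 motor of endosomes (chromosome 6, 17759183 to 17987623, minus strand), had 2241 and 1988 reads in shCTR, 2006 and 1906 in shMETTL3 and 2514 and 2543 in shMETTL14 libraries. The 2 shMETTL14 libraries were the highest, with a log2 fold change of 0.25 (SE 0.0668, adjusted p = 0.0305). KIF7 fell by 0.51 on the log2 scale (SE 0.135, adjusted p = 0.026). Without shMETTL14 replicate 1, none of the 5 calls was kept, and without shMETTL14 replicate 2 only KIF5A and KIF21B did. Leaving out shCTR replicate 2 gained the mitotic gene KIF18B and the transport gene KIFC2 as higher and the mitotic gene KIF2C as lower. It cost the call of KIF13A, and leaving out shCTR replicate 1 cost those of KIF3B and KIF7. The calls over all genes fell likewise, from 1184 to 334 and 360 without shMETTL14 replicate 1 or 2. The log2 fold changes over these omissions ran from 0.34 to 0.39 for KIF21B, from 0.29 to 0.54 for KIF5A, from 0.18 to 0.31 for KIF13A, from 0.23 to 0.38 for KIF3B and from -0.60 to -0.43 for KIF7.

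The direct comparison of the knockdowns tested whether a gene's level differed between them. Of 34 members tested besides KIF1A, 5 were higher and 3 lower in shMETTL3 than in shMETTL14 cells, where 6.65% of all genes were called higher and 5.49% lower. KIF1A's shMETTL3 level was known beforehand, so nothing is read from these shares either. The groups gave 4 transport genes higher and 2 lower of 16, 1 ciliary gene higher of 5 and 1 mitotic gene lower of 13.

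KIF21B was higher in shMETTL3 cells by 0.55 on the log2 scale (SE 0.0633) and KIF7 by 0.93 (SE 0.131, adjusted p = 5.64e-05), and both calls held in all 13 alternatives. KIF17 was higher by 1.23 (SE 0.284, adjusted p = 0.00614). KIFBP (chromosome 10, 68988721 to 69043544, plus strand) had 322 and 328 reads in shCTR, 392 and 387 in shMETTL3 and 277 and 324 in shMETTL14 libraries, and was higher in shMETTL3 by 0.36 (SE 0.107, adjusted p = 0.0332). With reads of 1812 and 1511 in shCTR, 1956 and 1906 in shMETTL3 and 1540 and 1696 in shMETTL14 libraries, KIF1B (chromosome 1, 10210805 to 10381603, plus strand) was higher by 0.24 (SE 0.0761, adjusted p = 0.0459). The shMETTL3 libraries of KIFBP and KIF1B lay above both other groups. In neither gene did a knockdown differ from shCTR past the threshold.

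In the other direction, KIF13A had the lower level after METTL3 knockdown, with a log2 difference of -0.39 (SE 0.0671, adjusted p = 0.000542), in all 13 alternatives. KIF5A also differed by -0.39 (SE 0.0796, adjusted p = 0.00232). KIF4A, the chromokinesin that organises the central spindle (chromosome X, 70290090 to 70420832, plus strand), had 1029 and 945 reads in shCTR, 910 and 964 in shMETTL3 and 1179 and 1039 in shMETTL14 libraries, a difference of -0.26 (SE 0.076, adjusted p = 0.0288). Its reads may include some of KIF4B. DESeq2 called 3 members higher and 2 lower, without KIFBP, KIF1B and KIF4A, and 686 of 17686 genes higher and 641 lower. Leaving out shMETTL3 replicate 1, shMETTL3 replicate 2 or shMETTL14 replicate 1 left 4, 4 and 3 calls, and each of these lost KIFBP, KIF1B and KIF4A. Their log2 differences over all single-library omissions stayed between 0.25 and 0.48, 0.17 and 0.31, and -0.34 and -0.17, and the calls over all genes fell from 2148 to between 927 and 1179 with 1 library in a compared group.

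**Figure D4:**
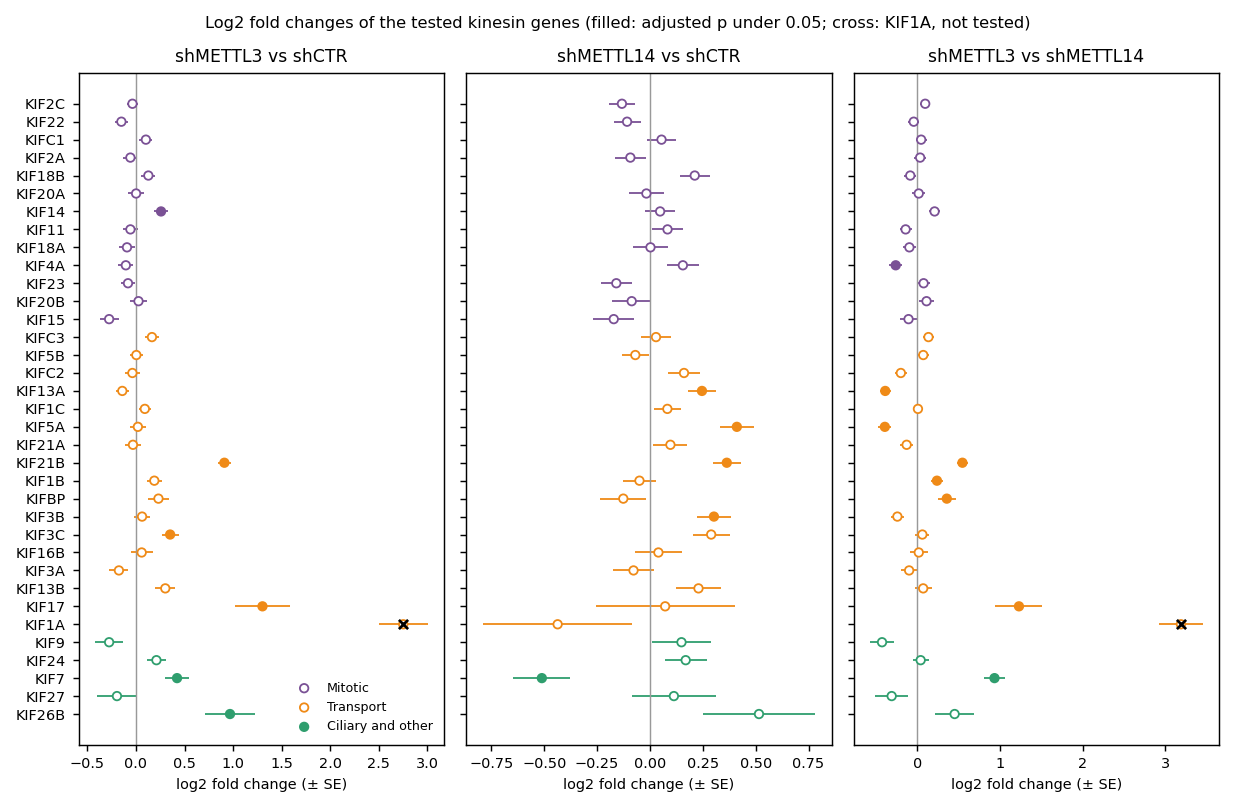
Log2 fold change of each of the 35 tested kinesin genes with its standard error in the 3 comparisons, filled where the adjusted p was under 0.05, with a cross at KIF1A where it was not tested. Mitotic genes stay between -0.28 and 0.26 in all panels, while the called transport and ciliary genes reach 1.30 above and -0.51 below 0.

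The partners of these motors were counted in the same way. Of 28 spindle partners tested, such as kinetochore and midzone proteins, 0 were called in any of the 3 comparisons, with 0 higher and 1 lower, 1 higher and 3 lower, and 0 higher and 2 lower at an unadjusted p under 0.05, and 0 by DESeq2. Of 23 tested kinesin light chains, adaptors and cargo scaffolds, 4 were higher and 1 lower in shMETTL3 than in shCTR cells, by edgeR and by DESeq2, where 8.73% of all genes were higher and 7.73% lower. In shMETTL14 cells 0 passed, with 2 higher and 3 lower at an unadjusted p under 0.05 and 0 by DESeq2. In that comparison 3.43% of all genes were higher and 3.26% lower by edgeR. Between the knockdowns 4 were higher and 1 lower in shMETTL3 cells, and 2 higher and 0 lower by DESeq2, where 6.65% of all genes were higher and 5.49% lower by edgeR.

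The accessory genes with the largest changes were the JNK-interacting scaffolds that link kinesin-1 to cargo. MAPK8IP2 had 20 and 14 reads in shCTR, 63 and 49 in shMETTL3 and 27 and 29 in shMETTL14 libraries, a log2 fold change of 1.69 in shMETTL3 cells (SE 0.300, adjusted p = 0.000657). MAPK8IP1 had 158 and 207 reads in shCTR, 264 and 315 in shMETTL3 and 183 and 194 in shMETTL14 libraries, with a log2 fold change of 0.63 (SE 0.142, adjusted p = 0.00433). For both genes the shMETTL3 libraries were above the other 4. Relative to shMETTL14 the differences were 0.98 (adjusted p = 0.0215) and 0.60 (adjusted p = 0.00693).

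Of 17 tested tubulin and dynein genes, 3 were higher and 1 lower in shMETTL3 cells, 1 higher and 1 lower in shMETTL14 cells, and 3 higher and 1 lower between the knockdowns. DESeq2 called 2 higher and 1 lower, 0 higher and 1 lower, and 3 higher and 1 lower. The shares of all genes called by edgeR were 8.73% and 7.73%, 3.43% and 3.26%, and 6.65% and 5.49% in the same order. TUBA1A, an alpha-tubulin abundant in neurons, had 514 and 534 reads in shCTR, 897 and 862 in shMETTL3 and 706 and 619 in shMETTL14 libraries. It rose by 0.72 on the log2 scale (SE 0.0861, adjusted p = 1.09e-05) in shMETTL3 and by 0.32 (SE 0.0881, adjusted p = 0.0301) in shMETTL14 cells, the second call being lost with DESeq2. TUBB4A, a beta-tubulin of the brain, had 102 and 82 reads in shCTR, 166 and 174 in shMETTL3 and 89 and 73 in shMETTL14 libraries, a log2 fold change of 0.86 in shMETTL3 cells (SE 0.168, adjusted p = 0.00161). TUBB2B had 538 and 509 reads in shCTR, 490 and 689 in shMETTL3 and 309 and 302 in shMETTL14 libraries. The shMETTL14 libraries were the lowest, by -0.79 on the log2 scale from shCTR (SE 0.122, adjusted p = 0.000332), and the 2 shMETTL3 libraries differed widely. Reads of tubulin genes may be split among close paralogs.

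The control libraries differed from each other in the kinesin genes. In shCTR, 26 of the 35 tested members, and 12 of the 13 mitotic ones, had a higher CPM in replicate 1 than in replicate 2, with a median log2 ratio of 0.112, whereas 50% of all genes did. The corresponding counts were 24 of 35 in shMETTL3 and 22 of 35 in shMETTL14 libraries, with 11 of 13 mitotic genes in each. Across the members, the shCTR ratio and transcript GC content had r = -0.501 (n = 35), given as a description since the points share 2 libraries. The members' r was -0.305 in shMETTL3 and -0.0596 in shMETTL14. All genes with a known GC content gave -0.24 in shCTR, -0.0813 in shMETTL3 and 0.0682 in shMETTL14, so the shCTR trend was not confined to kinesins. The part of this spread in the calls was not tested.

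The mRNAs were also searched for GGACT, the letters that N6-methyladenosine most often occupies, on the sense strand of the longest transcript. KIF21B held 19 matches, 1.92 per kb, and KIF1A 10, 1.08 per kb. The median was 1.01 per kb over KIF1A and the 12 called members, 1.12 over the other 22 tested members and 0.927 over 12253 protein-coding genes. The called members did not have the higher median, and methylation itself was not measured in these libraries.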

How the data were processed

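RNA-seq of K562 cells was analysed in 6 libraries of 3 groups, taken from the sample titles. Before sequencing, mRNA was captured on oligo(dT) beads. The authors deposited 1 table of raw counts, whole reads per gene, not normalized. HTSeq 0.6.1 and hg38 are named in the submitters' processing notes. The aligner, annotation release and strand setting are not given in the sources used here, so reads of a gene and an overlapping antisense gene cannot be told apart. A gene name table gave symbols for 56558 identifiers and GENCODE 29 for 497. The 986 rows without an Ensembl identifier were counted in the library totals, of which they made up 0.635% to 0.703%.

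The main test was edgeR 4.0.16 in R 4.3.3: filterByExpr with minimum count 10, TMM factors, then glmQLFit and glmQLFTest over all 6 libraries in 1 fit. P-values were adjusted by Benjamini-Hochberg over 17686 genes, with 0.05 as threshold. CPM uses TMM-scaled library sizes, and levels between genes are per kb of the longest GENCODE 29 transcript. Printed gene coordinates are those of GENCODE 29 (GRCh38). The 13 alternatives were DESeq2 1.42.0, its size factors in edgeR, library size alone, no filter, only the groups compared, a replicate block, a GC and length trend removed (mgcv 1.9.3) and each library left out. Steps were tested on simulated data.

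The members and gene lists were chosen with earlier results of these data known. Every library's value was given for KIF1A, members with an adjusted p under 0.05 in any comparison and the highest member of each role, per kb. Of each partner list, up to 2 called genes with the largest log2 fold change per comparison were named. SYP, SYT1 and NEFH were named as neuronal markers, and ALAS2, LYZ, KRT19, COL1A1 and EPCAM as other markers, after their values were seen.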

Additional observations from a re-analysis of the deposited data

How the results depend on the processing

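The lower METTL3 level in shMETTL3 cells and METTL14 level in shMETTL14 cells kept direction and call in all 13 alternatives, and no call of the 12 called kinesin genes changed direction. Some uncalled values of these genes changed sign, each with an adjusted p over 0.05. In shMETTL3 against shCTR, KIF5A was at -0.037 with the GC and length trend removed and ran from -0.10 to 0.15 with each library left out, and KIF3B from -0.0090 to 0.14. In shMETTL14 against shCTR the ranges were -0.039 to 0.14 for KIF14, -0.26 to 0.34 for KIF17 and -0.15 to 0.061 for KIF1B. For genes outside the 12 and KIF1A, the calls gained were followed through the alternatives, but the fold changes were not. In shMETTL3 against shCTR, 6 members were called, and 3 to 9 with each library left out. In shMETTL14 against shCTR, 5 were called, but 3 by DESeq2 and 2 without the filter, under which 37080 genes were tested, and 0 to 7 with each library left out. Between the knockdowns 8 were called, but 5 by DESeq2 and 5 without the filter, and 3 to 12 with each library left out. Between the knockdowns, fitting only the 2 groups compared called 12 members, 6 higher and 6 lower, with KIF3B, KIF14, KIFC2 and KIF9 gained. Removing the GC and length trend called the same 12. These 2 settings also called more of all genes, 2895 and 3086 in place of 2148. The cause of the DESeq2 losses was not tested. Over all genes, DESeq2 called 1881 against 2912, 763 against 1184 and 1327 against 2148. Without the filter, 766 genes were called in shMETTL14 against shCTR and 1631 between the knockdowns. Library size alone gave 2158 genes higher and 858 lower in shMETTL3 against shCTR in place of 1544 and 1368, 743 and 443 in shMETTL14 against shCTR in place of 607 and 577, and 1399 and 754 between the knockdowns in place of 1177 and 971. With each library left out, the calls over all genes ranged from 1144 to 3504, 334 to 1888 and 927 to 2911. Over all genes, same-numbered libraries did not deviate together (r = 0.0614, 0.00511 and -0.02), so the numbers were not taken as pairs, although replicate 1 was higher in 26, 24 and 22 of the 35 kinesin genes in the 3 groups. With the replicate number as a block, 8 (7 higher, 1 lower), 7 (6 and 1) and 11 (6 and 5) members were called. The block called 3264, 1459 and 2478 of all genes, against 2912, 1184 and 2148 without it. It gained KIF15 and KIF13B in shMETTL3 against shCTR, and KIF18B and KIF3C in shMETTL14 against shCTR. Between the knockdowns it gained KIF3B, KIF14 and KIF9. Genes near 20 reads, such as KIF17, have SEs that allow only large differences to be seen.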
